A study of Mus musculus with 16 samples.

Results

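Gene expression in the somatosensory cortex of undisturbed AcPb-/- mice was compared with that of undisturbed wild-type mice. The comparison used 3 AcPb-/- control libraries (replicates 03, 04 and 05) and 3 wild-type control libraries (replicates 01, 02 and 03). Of the 24421 genes listed, 20273 had any read in these 6 libraries, and all of those were taken. The genes were chosen by detection and not by any difference between genotypes.

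AcPb is an alternatively spliced form of the interleukin-1 receptor accessory protein and is made from the gene Il1rap, mainly in neurons. Interleukin-1 (IL1) is an inflammatory cytokine that also promotes sleep. It binds the receptor Il1r1, which signals once the accessory protein joins it and the adaptor Myd88 is recruited to their intracellular domains. The accessory protein of glia and peripheral cells carries this signal to NF-kappa-B, whereas AcPb has a different intracellular end and is known to modify IL1 responses in neurons.

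The mice were wild-type C57BL/6 mice and homozygous mice of an IL1 receptor AcPb-/- line, all labelled male, aged 2 to 3 months and genotyped from tail tissue. Per the labels, founders of both genotypes came from a commercial supplier and were bred in house for 5 to 7 generations. The wild-type mice are named C57/BL6J in the methods. Whether wild-type and AcPb-/- mice were littermates is not given in the sources used here. Controls were left undisturbed until collection at ZT4, 4 h after lights on in a 12 h light and 12 h dark cycle. A second set of libraries, 3 of wild-type and 3 of AcPb-/- mice after 8 h of sleep deprivation (SD) by gentle handling from ZT20, shares no library with the controls and served to see which genotype differences were found again. The labels list 16 samples, and 4 of them (2 of AcPb-/- controls, 1 of each SD group) were not analysed here.

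Reads counted on genes ranged from 26504840 to 35683409 in AcPb-/- controls and from 32870075 to 41615582 in wild-type controls, and the SD libraries were deeper (58770286 to 71857505). The top 10 genes accounted for 3.36% to 3.68% of a control library's reads. The labels describe all mice as male, but Xist, an RNA made from an inactive X chromosome, had between 25352 and 39358 reads in 4 control libraries, which had 0 to 2 reads in all of Uty, Kdm5d, Ddx3y and Eif2s3y, which are Y-linked. Wild-type replicate 01 and AcPb-/- replicate 03 had 13 and 12 Xist reads and 5398 and 5105 Y-linked reads. Xist libraries were thus 2 of 3 in each genotype of the controls and 0 of 6 after SD, so Xist did not separate the genotypes but did separate libraries within each. All 10 markers of cortical excitatory neurons were detected, and their summed normalized counts ranged from 206011 to 236333 in wild-type and from 225786 to 259726 in AcPb-/- controls. Summed markers of oligodendrocytes, the myelin-forming cells, were 104866, 86937 and 81728 in wild-type replicates 01, 02 and 03. In AcPb-/- replicates 03, 04 and 05 they were 95368, 41404 and 55696, so replicates 04 and 05 lay below every wild-type library and replicate 03 did not.

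Il1rap was the first gene examined. It lies on chr16:26581704-26730117 (GRCm38, plus strand). Its normalized counts, reads divided by a library size factor, were 1095, 1080 and 1108 in wild-type controls and 1163, 1202 and 1106 in AcPb-/- controls. The groups overlapped, with means of 1095 ± 14.4 and 1157 ± 47.9 (SD, n = 3 each). The log2 fold change, AcPb-/- over wild-type on log2(normalized count + 1), was 0.08 ± 0.06 (SE), with a limma adjusted p of 0.718. After SD it was 0.11 ± 0.07 with a limma adjusted p of 0.874. GENCODE M21 lists 7 transcripts of the gene, 4 of them protein-coding and ending in 4 different last exons. Counts per gene sum over these transcripts, so they do not check the loss of the AcPb form and could not be used to verify the genotype labels.

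Of 20273 genes, 4 passed an adjusted p of 0.05 (0.0197%), and all 4 were higher in AcPb-/- controls. They were Gabra2, Nnt, Erich5 and the pseudogene Tmem181b-ps, each at a limma adjusted p of 0.0275. A further look at an unadjusted p under 0.05 gave 1730 genes (8.53%), 866 higher (4.27%) and 864 lower (4.26%). For 2918 genes (14.4%) the 3 libraries of each genotype did not overlap, 1490 higher (7.35%) and 1428 lower (7.04%). The median log2 fold change of all tested genes was 0.0006, which the size factors set near 0.

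Gabra2 encodes the alpha2 subunit of the GABA-A receptor, the main inhibitory chloride channel of the cortex. It lies on chr5:70957597-71095849, minus strand. It had 1428, 1337 and 1327 normalized counts in wild-type controls and 2748, 3301 and 2301 in AcPb-/- controls. Every AcPb-/- library lay above every wild-type library, and the means (1364 ± 55.7 and 2783 ± 501, SD, n = 3 each) differed 2.04-fold, a log2 fold change of 1.01 ± 0.11. After SD the values were 2905, 2606 and 3603 in wild-type and 5364, 4128 and 4573 in AcPb-/- mice, again without overlap, with a log2 fold change of 0.63 ± 0.13.

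Nnt encodes nicotinamide nucleotide transhydrogenase, a mitochondrial inner membrane enzyme that regenerates NADPH. It lies on chr13:119335448-119408997. It had 734, 692 and 789 normalized counts in wild-type controls and 1296, 1355 and 1126 in AcPb-/- controls, a 1.71-fold difference of the means (log2 fold change 0.77 ± 0.08). After SD, wild-type libraries had 1368, 1303 and 1416. AcPb-/- replicates 03 and 04 had 2011 and 1740 after SD, whereas replicate 02 had 1271, below all wild-type libraries. The SD groups thus overlapped for Nnt (log2 fold change 0.27 ± 0.14, limma adjusted p = 0.861).

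Gabra2 and Nnt belong to a list of 9 genes that are known to differ in sequence or expression between C57BL/6 substrains, and variants that lower the expression of each of these 2 genes are known in C57BL/6J. Of the 9 genes, 2 rose and 0 fell, against 0.0197% of all genes called, and the median log2 fold change was 0.15 against 0.0006 for all genes. The third highest of them was Wdfy1, an adaptor protein of endosomes. Wdfy1 had 736, 697 and 692 normalized counts in wild-type controls and 760, 1212 and 1155 in AcPb-/- controls, with replicate 03 close to the wild-type values (log2 fold change 0.53 ± 0.15, limma adjusted p = 0.413). DESeq2 called Wdfy1 (adjusted p = 0.0379), as did limma without AcPb-/- replicate 03 (0.00122), and the adjusted p ranged from 0.000705 to 0.847 over the alternatives. The other 6 were Entpd4, Crb1, Cyfip2, Nlrp12, Ide and Fgfbp3, with unadjusted p-values of 0.194 or more. The 9 genes were listed with earlier results of these data known, so their counts and median are not independent evidence of a pattern. The part of substrain differences in these values was not tested.

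Erich5 lies on chr15:34453305-34473892. It had 11.1, 9.27 and 7.34 normalized counts in wild-type controls and 54.4, 82.4 and 51.6 in AcPb-/- controls, and its log2 fold change of 2.62 ± 0.28 was the highest of the genes that passed. After SD it had 18.5, 19.4 and 24.4 in wild-type and 33.9, 44.8 and 176 in AcPb-/- mice, where replicate 04 stood far above the others. Tmem181b-ps lies on chr17:6438524-6467022 and is annotated as a transcribed unprocessed pseudogene. It had 3761, 4039 and 4303 normalized counts in wild-type controls and 6461, 8218 and 8222 in AcPb-/- controls (log2 fold change 0.91 ± 0.10). After SD it had 9663, 8480 and 9254 in wild-type and 12384, 17076 and 12301 in AcPb-/- mice, also without overlap. Of the stretches of 100 bases in its transcripts, 33.3% occur in other genes, mostly Tmem181a, so its reads could be split between copies. Tmem181a itself had a log2 fold change of 0.17 ± 0.05 (limma adjusted p = 0.456).

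**Figure D1:**
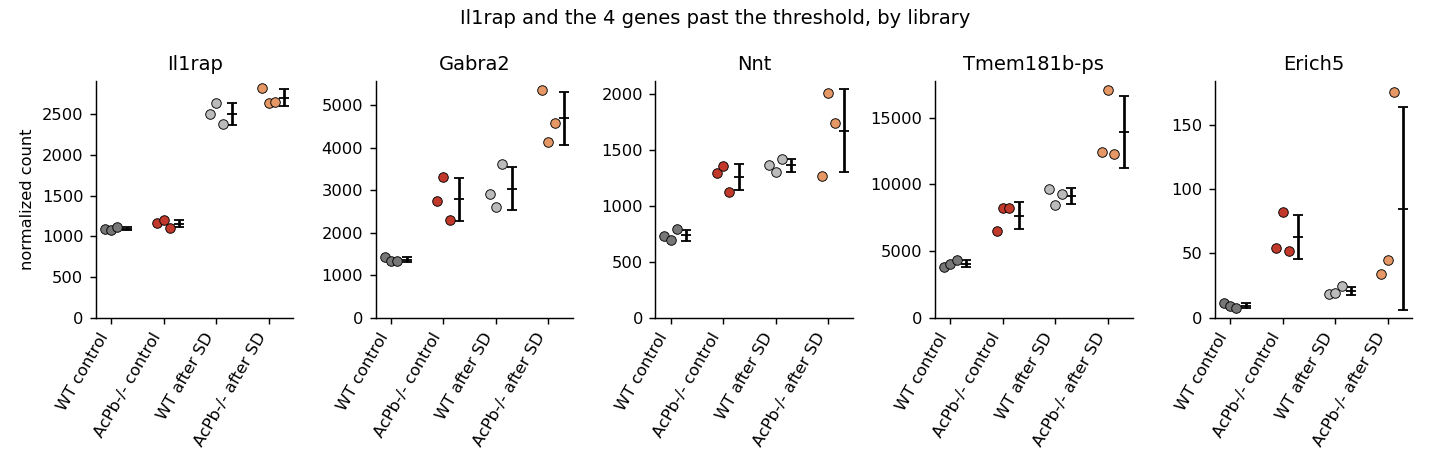
Normalized counts (vertical axes, from 0) of Il1rap and of the 4 genes past the threshold, with a point for each library and, beside each group, the mean and SD of 3 libraries. For Gabra2, Nnt, Tmem181b-ps and Erich5 the AcPb-/- controls (dark red) lie above the wild-type controls (dark grey), and for Il1rap they overlap. Control and SD libraries were normalized in separate tables, so levels can be compared only within controls or within SD.

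The calls moved with the libraries in the fit. Without wild-type replicate 01, 02 or 03 or AcPb-/- replicate 04, 0 genes passed in limma (1737, 1370, 1089 and 1334 genes at an unadjusted p under 0.05), and without AcPb-/- replicate 05 Gabra2 and Nnt passed. Leaving out AcPb-/- replicate 03 gave 168 genes (48 higher, 120 lower), the 4 among them, and a term for libraries with Xist gave 10. On recovered reads, edgeR called 8 genes (0.0395% of those tested) and DESeq2 called 93 (0.569%), 38 higher (0.233%) and 55 lower (0.337%), with the same 4 genes in each. In the 4 libraries with Xist, the log2 fold changes were 1.05 for Gabra2, 0.74 for Nnt, 2.84 for Erich5 and 0.98 for Tmem181b-ps, and without Xist there was 1 library of each genotype. Across 19 alternatives the log2 fold change stayed between 0.88 and 1.14 for Gabra2, 0.71 and 0.84 for Nnt, 0.86 and 1.03 for Tmem181b-ps and 1.90 and 2.84 for Erich5.

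Genotype differences were found again after SD more often than in the opposite direction. Of 19916 genes tested in both sets of libraries, 261 (1.31%) had an unadjusted p under 0.05 in both with the same direction, 106 higher and 155 lower in AcPb-/- mice. The opposite direction was found for 24 genes (0.121%). After SD alone, 1265 genes (6.13%) had an unadjusted p under 0.05. The libraries of the 2 genotypes did not overlap in either set, in the same direction, for 409 genes (2.05%). Among 459 genes with an unadjusted p under 0.01 in controls, 370 (80.6%) had the same sign after SD, against 57.6% of all genes. Of the 459 genes, 128 also had an unadjusted p under 0.05 after SD with the same sign, and 5 with the opposite sign. No gene passed the adjusted threshold in both sets by limma, where 3 genes passed after SD (0.0145% of 20621). With edgeR 1 gene, Chac1, passed in both, and with DESeq2 24 genes did, 25.8% of the calls in controls and 24.7% of those after SD. For the difference between the genotype differences, 0 genes passed in limma or edgeR and 1 in DESeq2. Of 20978 genes, 839 (4%) had an unadjusted p under 0.05 for it in limma.

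**Figure D2:**
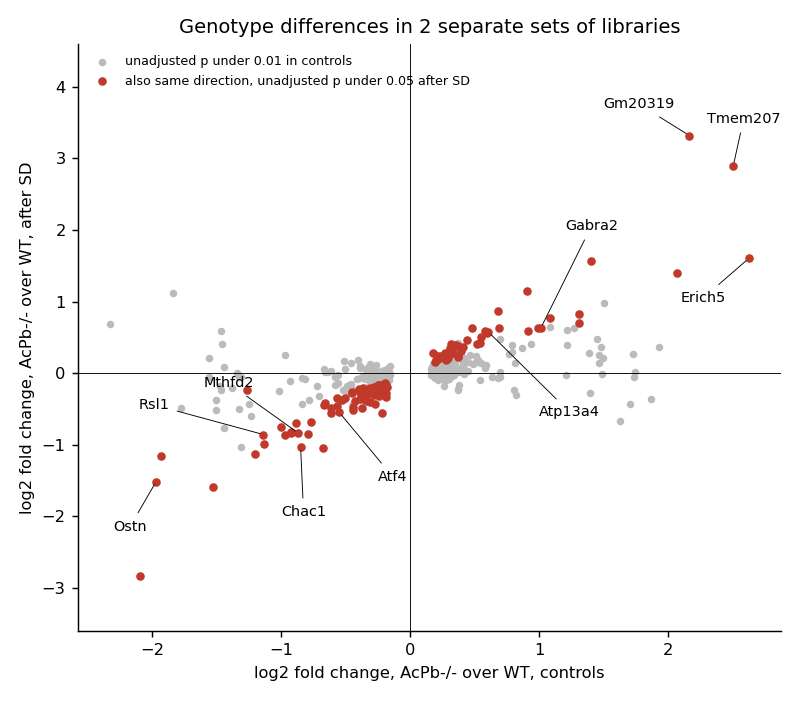
Log2 fold changes of AcPb-/- over wild-type mice in controls (horizontal axis) and after SD (vertical axis) for the 459 genes with an unadjusted p under 0.01 in controls. The 128 genes in red also had an unadjusted p under 0.05 after SD in the same direction, and most of the 459 lie in the lower left or the upper right.

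Of the 155 recurring genes with lower values in AcPb-/- mice, 15 belong to the response to amino acid shortage. Of the 34 genes listed for it, 16 recurred, 15 lower and 1 higher (47.1%, against 1.31% of genes tested in both sets). In this pathway, kinases that sense stress phosphorylate the translation factor eIF2, which favours translation of the transcription factor Atf4. Atf4 binds short composite elements near its targets, which encode enzymes of amino acid synthesis, amino acid transporters and the aminoacyl-tRNA synthetases that charge tRNAs. A list of 34 such genes and a list of the 20 cytosolic synthetases were written after the values of several members had been seen, so their counts describe the pattern and are not independent evidence for it. The promoter stretches of Chac1 and of Gars, the synthetase for glycine, are shown because each holds the element TGATGNAA on either strand, which is the core of the amino acid response element. They are from RefSeq on GRCm38.p6, read in the direction of the gene, with the match in capitals.
Chac1, chr2:119350992-119351111, plus strand: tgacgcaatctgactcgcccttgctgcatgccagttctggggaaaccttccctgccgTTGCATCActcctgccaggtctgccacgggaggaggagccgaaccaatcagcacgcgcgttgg
Gars, chr6:55037881-55038000, plus strand: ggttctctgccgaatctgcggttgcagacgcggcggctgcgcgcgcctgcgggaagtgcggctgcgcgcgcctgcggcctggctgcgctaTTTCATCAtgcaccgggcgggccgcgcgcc
The matches begin 193 and 30 bases before the RefSeq start of Chac1 and Gars. Of 29 genes of the first list with a promoter in the table, 8 held the element within 250 bases before a RefSeq start, as did 3 of 12 synthetases (27.6% and 25%), against 3.91% of 27025 genes. The 8 were Atf3, Chac1, Asns, Pycr1, Pck2, Slc7a11, Nupr1 and Vldlr, of which Pck2 and Slc7a11 had higher values in AcPb-/- controls. A match is a description of the sequence and bears on no difference between genotypes, as the lists were made of genes of this response. The RefSeq promoters of Atf4, Atf5 and Mthfd2 held none, and for Slc7a3, Slc7a5 and Cars no promoter was available.

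Atf4 itself had 4209, 4826 and 5510 normalized counts in wild-type controls and 3044, 3305 and 3557 in AcPb-/- controls. The groups did not overlap (4848 ± 651 and 3302 ± 257, SD, n = 3 each), and the log2 fold change was -0.55 ± 0.10 with a limma adjusted p of 0.192. After SD it had 10816, 11882 and 12423 in wild-type and 7808, 8171 and 8000 in AcPb-/- mice, a log2 fold change of -0.55 ± 0.07 with a limma adjusted p of 0.0548. The groups were apart in both sets, and neither difference passed the threshold in limma.

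Chac1, an enzyme that breaks down glutathione, had 342, 347 and 345 normalized counts in wild-type controls and 220, 176 and 180 in AcPb-/- controls. Its log2 fold change was -0.85 ± 0.11 in controls (limma adjusted p = 0.0725) and -1.03 ± 0.14 after SD (limma adjusted p = 0.0645). Mthfd2, a mitochondrial enzyme of one-carbon metabolism that uses folate, had 263, 305 and 319 in wild-type and 165, 162 and 157 in AcPb-/- controls. Its log2 fold change was -0.86 ± 0.11 in controls (limma adjusted p = 0.0725) and -0.84 ± 0.15 after SD. Asparagine synthetase, Asns, had 3711, 3733 and 4019 in wild-type and 2721, 3126 and 2918 in AcPb-/- controls, a log2 fold change of -0.39 ± 0.06 (limma adjusted p = 0.165) and of -0.36 ± 0.07 after SD. In each of these 3 genes the highest AcPb-/- control lay below the lowest wild-type control. In alternatives the adjusted p of Chac1 ranged up to 0.575 and passed the threshold in edgeR (0.0391), in DESeq2 (8.95e-06) and with a term for Xist (0.0325).

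Transporters and other enzymes of the list also had lower values in AcPb-/- controls. Slc7a3, a carrier of cationic amino acids, had 381, 354 and 346 normalized counts in wild-type and 268, 189 and 134 in AcPb-/- controls (log2 fold change -0.92 ± 0.21). Slc7a5, the large neutral amino acid transporter, had 3013, 3136 and 2848 against 2085, 2559 and 2511 (-0.34 ± 0.08). Bcat1, a branched-chain aminotransferase, had a log2 fold change of -0.30 ± 0.06 in controls and -0.09 ± 0.10 after SD. Aldh18a1, an enzyme of proline synthesis, had -0.28 ± 0.06 and -0.31 ± 0.07. Atf5, another transcription factor of the same response, had -0.44 ± 0.09 and -0.51 ± 0.08. None of these passed the adjusted threshold in limma, whereas DESeq2 called Slc7a3, Slc7a5, Bcat1 and Atf5 lower, with adjusted p-values of 0.0107, 0.0483, 0.0167 and 0.0179. DESeq2 also called Atf4, Chac1, Mthfd2 and Asns lower. Over the alternatives the adjusted p ranged from 0.000251 to 0.847 for Slc7a3, 0.00569 to 0.847 for Slc7a5, 0.00366 to 0.847 for Bcat1 and 0.00326 to 0.795 for Atf5.

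Over the whole list of 34 genes, 17 had an unadjusted p under 0.05 with a lower value in AcPb-/- controls, against 4.26% of all genes, and 2 with a higher value. The groups did not overlap for 19 lower genes and 1 higher gene, against 7.04% and 7.35% of all genes. DESeq2 called 8 of the 34 lower and 0 higher, against 0.337% and 0.233% of all genes. The median log2 fold change was -0.22 in controls and -0.25 after SD, against 0.0006 and 0.001 for all genes tested. Among the 2 higher genes, Slc7a11, the cystine transporter, had a log2 fold change of 0.37 ± 0.11, and Pck2, mitochondrial phosphoenolpyruvate carboxykinase, had 0.25 ± 0.07. Members whose groups overlapped included Ddit3, a transcription factor of the stress response (714, 734 and 704 against 770, 698 and 722 normalized counts), and Phgdh, the first enzyme of serine synthesis (1970, 1718 and 1415 against 1767, 1619 and 1579).

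Of the 20 cytosolic aminoacyl-tRNA synthetases, 11 had an unadjusted p under 0.05 with a lower value in AcPb-/- controls and 1, Hars, with a higher one, against 4.26% and 4.27% of all genes. DESeq2 called 4 of them lower, Cars, Nars, Yars and Gars. Their median log2 fold change was -0.15 in controls and -0.13 after SD. Cars, the enzyme for cysteine, had 1770, 1795 and 1993 normalized counts in wild-type and 1370, 1424 and 1343 in AcPb-/- controls (log2 fold change -0.42 ± 0.06, limma adjusted p = 0.116). Nars and Yars, the enzymes for asparagine and tyrosine, each had -0.30 ± 0.05. Gars, the enzyme for glycine, whose promoter is shown above, had 4938, 4968 and 5465 in wild-type and 3983, 4356 and 4412 in AcPb-/- controls (-0.27 ± 0.06). Aars, the enzyme for alanine, had 7534, 7219 and 7355 against 6420, 6497 and 6855 (-0.16 ± 0.05). Of the stretches of Aars, 12.8% also occur in Exosc6, and Cars, Yars, Hars, Atf5, Bcat1, Pck2 and Ddit3 overlap exons of a gene on the opposite strand, so part of their reads is uncertain.

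With each control library left out in turn, between 15 and 19 genes of the first list and between 8 and 12 synthetases had a lower value at an unadjusted p under 0.05. In the 4 libraries with Xist the counts were 18 and 7. All 3 AcPb-/- controls lay below all wild-type controls for Atf4, Atf5, Chac1, Asns, Mthfd2 and Cars. The part of Xist and of oligodendrocyte markers, which differ between AcPb-/- replicate 03 and the other 2, was not tested.

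**Figure D3:**
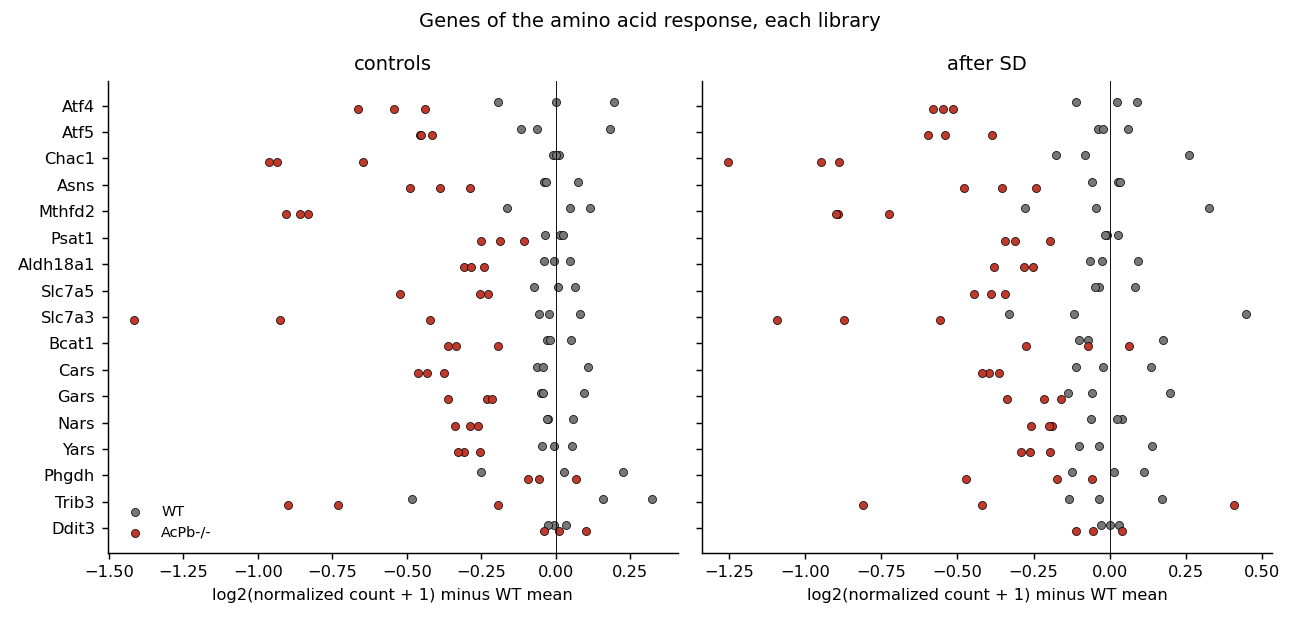
For 17 genes of the amino acid response (rows), log2(normalized count + 1) of each library minus the mean of the wild-type libraries, in controls (left) and after SD (right), with wild-type libraries in grey and AcPb-/- libraries in red. From Atf4 to Yars the AcPb-/- controls lie to the left of the wild-type controls, while Phgdh, Trib3 and Ddit3 overlap.

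Genes that neighbour Il1rap formed a second group. A knockout line keeps chromosome segments around the targeted gene from the cells in which the gene was altered, so neighbouring genes are of interest in any such comparison. Of 71 tested genes whose start lies within 5 Mb of that of Il1rap, 0 passed the adjusted threshold. An unadjusted p under 0.05 was found for 11 of them (15.5%, against 8.53% of all genes), and 6 recurred after SD in the same direction (8.57%, against 1.31% of genes tested in both). Within 10 Mb these were 33 of 230 genes (14.3%), with 11 that recurred, and within 20 Mb 40 of 378 (10.6%), with 12 that recurred. The median log2 fold changes of the 3 windows were between -0.01 and 0.00, and the part of a kept segment in these values was not tested. The genes described next are those that recurred within 7 Mb.

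Tmem207, a membrane protein gene that starts 0.078 Mb before Il1rap, had no read in any of the 6 wild-type libraries. In AcPb-/- controls it had 3.82, 5.15 and 5.16 normalized counts (13 reads in all), and after SD 6.36, 5.38 and 7.81 (20 reads). Against a floor of 3 reads over the wild-type group, it was at least 5.09-fold higher in controls and at least 6.37-fold higher after SD. Gm20319, a predicted gene whose exons overlap those of Il1rap on the opposite strand, had 1.85, 1.03 and 0.81 in wild-type and 8.60, 7.73 and 10.3 in AcPb-/- controls. It had 0.92, 0.00 and 2.03 against 15.9, 19.7 and 15.6 after SD. Of its stretches of 100 bases, 31.7% also occur in Il1rap transcripts on the other strand, and the strand that was counted is not given in the sources used here. Ostn, which encodes the secreted peptide osteocrin, had 2.78, 5.15 and 4.89 in wild-type and 0.00, 1.29 and 0.00 in AcPb-/- controls, and 6.46, 9.11 and 13.2 against 3.18, 1.79 and 2.93 after SD. All 3 genes had few reads, did not overlap between genotypes in either set, and were past no adjusted threshold in limma (0.112 for Tmem207, 0.165 for Gm20319 and 0.331 for Ostn in controls).

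Genes with more reads in the same segment differed by less. Atp13a4, a P-type ATPase that starts 2.81 Mb after Il1rap, had 518, 450 and 486 normalized counts in wild-type and 694, 730 and 793 in AcPb-/- controls (log2 fold change 0.61 ± 0.08, limma adjusted p = 0.0917). After SD it had 860, 805 and 849 against 1190, 1294 and 1262 (0.57 ± 0.07, limma adjusted p = 0.0565). Tfrc, the transferrin receptor that brings iron into cells, had 5987, 6080 and 6612 against 5083, 5153 and 5201 (-0.27 ± 0.05). Tnk2os, annotated on the strand opposite Tnk2, had 32.4, 25.8 and 28.5 against 73.6, 50.2 and 65.1 (1.09 ± 0.22). Cep19, a centrosomal protein gene, had a log2 fold change of -0.31 ± 0.06, Hrasls, a phospholipid-modifying enzyme gene, had -0.33 ± 0.11, and Ccdc50 had 0.17 ± 0.05. Tctex1d2, a dynein light chain gene, had 0.29 in controls and 0.58 after SD.

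**Figure D4:**
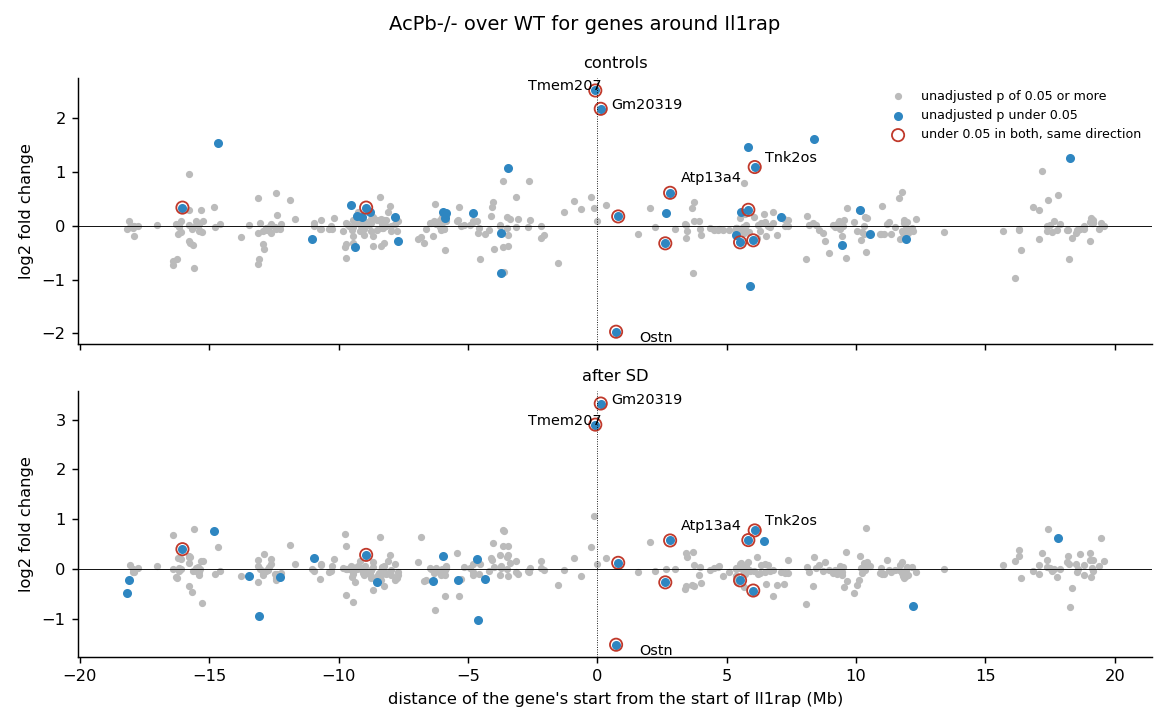
Log2 fold changes of AcPb-/- over wild-type mice (vertical axes) in controls (top) and after SD (bottom) for genes of chromosome 16, by the distance of their start from that of Il1rap (horizontal axis, Mb). Circled genes had an unadjusted p under 0.05 in both sets with the same direction, and most of them lie between 0 and 7 Mb, with Tmem207, Gm20319 and Ostn farthest from 0.

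By chromosome, recurring genes were most frequent on chromosome 13, not on chromosome 16. On chromosome 13, 38 of 723 genes (5.26%) had an unadjusted p under 0.05 in both sets with the same direction, 13 higher and 25 lower. On chromosome 16 there were 17 of 605 (2.81%). The other 18 chromosomes with genes tested ranged from 0.616% to 1.84%. The share on chromosome 13 was between 3.05% and 7.64% when each control library was left out in turn, and between 2.32% and 3.16% on chromosome 16.

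In recurring genes of chromosome 13 with a mean of at least 10, AcPb-/- replicate 03 was often nearer to the wild-type libraries, though not always within their range. For 25 of 37 such genes replicate 03 was nearer to the wild-type mean than to the mean of the other 2 AcPb-/- controls, against 1 for replicate 04 and 1 for replicate 05. On the other chromosomes this held for 32 of 210 genes in replicate 03 and for 19 each in replicates 04 and 05. These genes were chosen by their values in the same libraries, so the counts are a description.

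Sugct, an enzyme of glutarate metabolism, had 89.9, 91.7 and 78.2 normalized counts in wild-type controls. AcPb-/- replicate 03 had 96.5, while replicates 04 and 05 had 9.02 and 6.2. After SD, AcPb-/- replicates 02, 03 and 04 had 46.6, 7.17 and 68.3 against 112, 125 and 156 in wild-type mice, so here replicate 03, another animal, stood lowest. Gpr137b, which encodes a lysosomal membrane protein, had 436, 363 and 355 in wild-type and 431, 732 and 743 in AcPb-/- controls. Its annotated pseudogene Gpr137b-ps had 514, 510 and 513 in wild-type and 546, 82.4 and 57.8 in AcPb-/- controls, the same 2 libraries standing apart in the opposite direction. The 2 genes share 16.6% of the stretches of 100 bases in Gpr137b, so their reads could be split between them. Adarb2, a member of the RNA-editing enzyme family, had 769, 747 and 707 against 806, 1327 and 1196.

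Other genes of chromosome 13 did not show this split. Rreb1, a zinc finger transcription factor, had 2208, 2443 and 2219 normalized counts in wild-type and 2814, 3349 and 3175 in AcPb-/- controls (log2 fold change 0.44 ± 0.07, limma adjusted p = 0.17) and 0.46 ± 0.08 after SD. Hist1h2bc, a histone H2B gene that shares 25.4% of its stretches with other histone genes, had 516, 517 and 463 against 361, 303 and 288 (-0.66 ± 0.10). Nnt lies near the far end of the chromosome, and all 3 AcPb-/- controls were above wild-type for it.

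**Figure D5:**
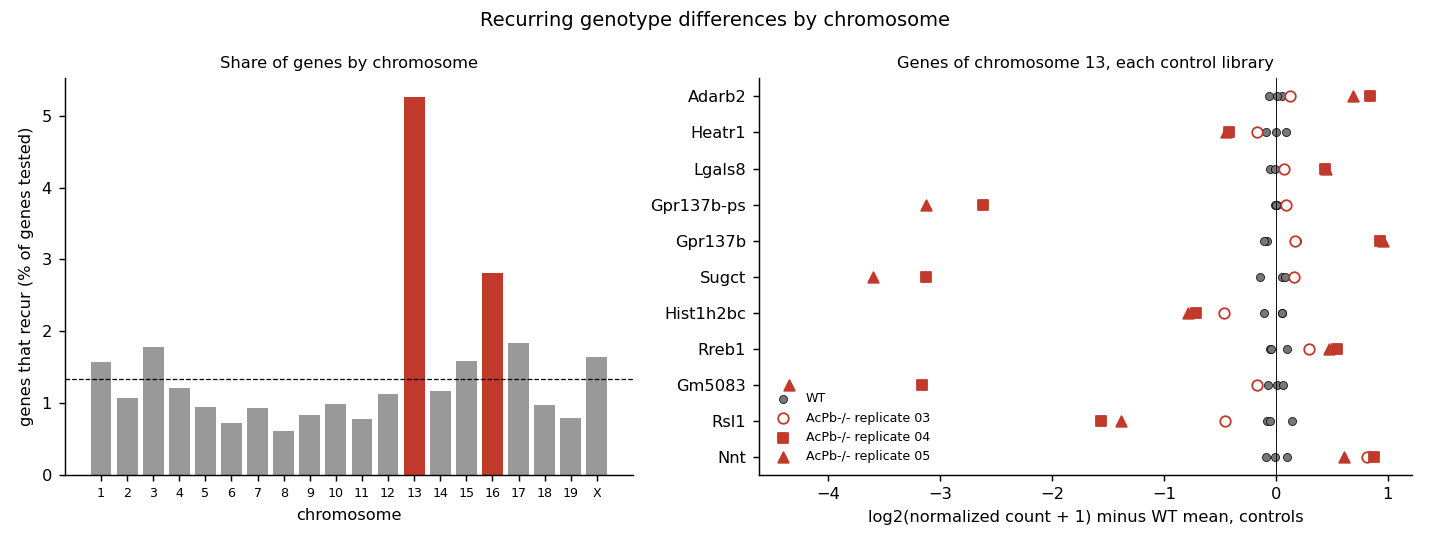
Left, the share of genes tested on each chromosome with an unadjusted p under 0.05 in both sets and the same direction (bars from 0, dashed line at the share for all chromosomes), which is highest on chromosome 13 (5.26%) and 16 (2.81%). Right, log2(normalized count + 1) minus the wild-type mean for 11 genes of chromosome 13 in each control library, where AcPb-/- replicate 03 (open circles) lies with wild-type libraries (grey) for Sugct, Gpr137b-ps and Gm5083 and with the other AcPb-/- libraries for Nnt.

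The same split was seen in the 3 genes that passed the threshold after SD. Bub1b, a kinase of the mitotic checkpoint, had 105, 123 and 104 normalized counts in wild-type controls and 117, 14.2 and 18.6 in AcPb-/- controls. The SD libraries had 255, 186 and 217 in wild-type and 36.0, 20.6 and 25.4 in AcPb-/- mice (log2 fold change -2.98 ± 0.23, limma adjusted p = 0.00556). The long noncoding RNA 2610035D17Rik had 487, 407 and 452 in wild-type and 472, 209 and 186 in AcPb-/- controls. Dsp, which encodes desmoplakin of cell junctions, had 13.9, 8.24 and 10.6 in wild-type and 9.55, 68.3 and 44.4 in AcPb-/- controls. In each, AcPb-/- control replicate 03 lay within the wild-type range, and all 3 AcPb-/- libraries lay apart from it after SD. In controls the log2 fold changes of these genes had limma adjusted p-values of 0.487, 0.519 and 0.552 with all libraries, and 0.000631, 0.00122 and 0.0126 without replicate 03.

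Other genes near Erich5 and Tmem181b-ps were chosen after their values were seen. Polr2k, a subunit shared by RNA polymerases, had 334, 293 and 316 normalized counts in wild-type and 145, 92.7 and 163 in AcPb-/- controls (log2 fold change -1.26 ± 0.19, limma adjusted p = 0.131). In SD mice it had 570, 560 and 655 against 467, 523 and 524 (-0.24 ± 0.10), and the difference between the 2 log2 fold changes had an unadjusted p of 0.000755 and a limma adjusted p of 0.986. Rgs22, a regulator of G-protein signalling, had 38.0, 35.0 and 22.8 against 78.3, 94.0 and 66.1 in controls (1.31 ± 0.24). Ncald, a neuronal calcium sensor, had 23010, 21665 and 20351 against 19789, 17846 and 14563 (-0.33 ± 0.10). On chromosome 17, next to Tmem181b-ps, Dynlt1b, a dynein light chain gene with 82% of its stretches shared with other copies, had 34.3, 27.8 and 24.5 against 43.9, 72.1 and 60.9.

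Genes of the IL1 system did not pass the threshold. Of 15 ligands and receptors of the IL1 family, 14 were detected and Il1rn had no read, and their median log2 fold change was -0.05. The receptor Il1r1 had 222, 224 and 209 normalized counts in wild-type and 189, 237 and 265 in AcPb-/- controls (log2 fold change 0.06 ± 0.13). Il1rapl1, a relative of the accessory protein found at synapses, had 379, 394 and 446 against 345, 428 and 385 (-0.08 ± 0.10). Il18, a cytokine of the same family, had 524, 514 and 539 against 510, 501 and 534 (-0.03 ± 0.07). Il33, an alarmin of the same family, was the only one of the 14 with an unadjusted p under 0.05 (7.14%, below the 8.53% of all genes). It had 1436, 1054 and 1200 in wild-type and 986, 849 and 922 in AcPb-/- controls (-0.41 ± 0.11, limma adjusted p = 0.373), with -0.08 ± 0.16 after SD. All 3 AcPb-/- controls lay below all wild-type controls for Il33. Of the 14 genes, 14.3% had groups that did not overlap, against 14.4% of all genes. Summed oligodendrocyte markers were also lower in AcPb-/- replicates 04 and 05, and their part in the Il33 values was not tested.

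Among 16 genes of IL1 signal transduction, 16 NF-kappa-B subunits and inhibitors and 17 detected inflammatory cytokines and chemokines, 0 had an unadjusted p under 0.05 in controls. The median log2 fold changes were 0.01, -0.03 and 0.01. Myd88, the adaptor, had 210, 200 and 234 normalized counts in wild-type and 184, 174 and 219 in AcPb-/- controls (log2 fold change -0.16 ± 0.12). Of 16 genes that sense peptidoglycan and lipopolysaccharide, 1 had an unadjusted p under 0.05 (6.25%, below the 8.53% of all genes). It was Siglec1, a sialic acid receptor of macrophages, whose groups overlapped. Its means were 35.5 ± 11.6 in wild-type and 20.4 ± 6.63 in AcPb-/- controls, with a log2 fold change of -0.76 ± 0.33. Of 14 MHC class I and peptide loading genes none had an unadjusted p under 0.05. Of 18 interferon-stimulated genes 1 did (5.56%, also below the share of all genes), Ifi27, at -0.18 ± 0.07. For these small differences, 3 libraries a group do not show that the genotypes act alike.

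Neuronal lists were read against the 8.53% of all genes with an unadjusted p under 0.05. Of 14 GABA-A receptor subunits 1 rose, Gabra2, and 0 fell, and their median log2 fold change was -0.02. Of 22 glutamate receptor subunits 0 passed, and 2 had an unadjusted p under 0.05 (9.09%, near the share of all genes), Grin2d and Grik1. Of 24 immediate early genes 0 passed and 4 had an unadjusted p under 0.05 (16.7%), with Jun and Jund higher and Fosl2 and Bdnf lower in AcPb-/- controls. Jund, a subunit of the transcription factor AP-1, had 4161, 3582 and 3643 in wild-type and 4554, 4742 and 4329 in AcPb-/- controls (0.26 ± 0.07). Of 21 circadian clock genes and 14 genes of adenosine receptors and metabolism, 1 each had an unadjusted p under 0.05 (4.76% and 7.14%), Nfil3 and Adk. Of 21 chaperone and ER stress genes, 18 had a negative log2 fold change (median -0.14), whereas the median after SD was 0.04. Atf4, described above, was among the 3 of these with an unadjusted p under 0.05, all lower. Of 21 cell cycle and growth genes, 3 also had an unadjusted p under 0.05, all lower (14.3% for each list, against 4.26% of all genes lower). Bub1b, described above, was among these cell cycle genes.

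Cell type markers differed most for oligodendrocytes. All 10 markers had a negative log2 fold change, with a median of -0.54, and 5 had an unadjusted p under 0.05 (50%, against 4.26% of all genes lower), while 0 passed the adjusted threshold. Mobp, a myelin protein, had 7100, 4444 and 4291 normalized counts in wild-type and 4770, 1650 and 2602 in AcPb-/- controls, so replicates 04 and 05 lay below every wild-type library. Without AcPb-/- replicate 03, 8 of the 10 passed the adjusted threshold, and without AcPb-/- replicate 04 or wild-type replicate 01 none had an unadjusted p under 0.05. In the libraries with Xist alone 9 passed. After SD the median was -0.29. In bulk tissue, fewer oligodendrocytes and less myelin RNA per cell cannot be told apart from each other or from differences in the tissue taken. Summed oligodendrocyte and striatal markers were both highest in wild-type replicate 01 (104866 and 20678), and the part of dissection was not tested.

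Of 10 microglial markers, 0 had an unadjusted p under 0.05 in controls, and their summed normalized counts ranged from 14351 to 15298 in wild-type and from 13872 to 14577 in AcPb-/- controls. Of 15 striatal markers, 3 had an unadjusted p under 0.05, all lower (20%, against 4.26% of all genes), and their sum was 20678 in wild-type replicate 01 and between 9980 and 14843 in the other 5 libraries. That count was 0 without AcPb-/- replicate 04, 1 without wild-type replicate 01 or 02 or AcPb-/- replicate 05, 6 without AcPb-/- replicate 03 and 10 without wild-type replicate 03, and 7 with a term for Xist. Penk, which encodes enkephalin, had 3151, 2624 and 1411 against 1579, 1034 and 1246. Of 10 hippocampal markers, 3 had an unadjusted p under 0.05, all higher (30%, against 4.27% of all genes), with sums of 11590 to 13153 in wild-type and 12045 to 15959 in AcPb-/- controls. That count was 0 without wild-type replicate 03, 1 without wild-type replicate 02 or AcPb-/- replicate 05, and 6, of which 1 passed the adjusted threshold, without AcPb-/- replicate 03. Dsp, described above for its genotype difference after SD, was among the 3 and was the 1 that passed without AcPb-/- replicate 03. The 10 astrocyte, 10 interneuron and 10 endothelial markers had medians of -0.02, -0.02 and 0.00. Of the astrocyte markers 3 had an unadjusted p under 0.05, 2 higher and 1 lower (30%, against 8.53% of all genes). Of the interneuron markers 0 did, and of the endothelial markers 1 did (10%). Of 6 red blood cell markers, Hba-a1, Hba-a2, Hbb-bs and Hbb-bt had no read in any control library, and neither had Elane among the neutrophil markers. The other 2 red blood cell markers, Alas2 and Slc4a1, summed to between 106 and 265 in wild-type and between 145 and 319 in AcPb-/- controls. Neither had an unadjusted p under 0.05, and their median log2 fold change was 0.38. The blood content of the tissue was not tested. Summed meningeal fibroblast markers ranged from 24888 to 29692 in wild-type and from 24584 to 38358 in AcPb-/- controls. Of these 10 markers, 2 had an unadjusted p under 0.05, both higher (20%, against 4.27% of all genes), and DESeq2 called Dcn higher. That count was 5 without AcPb-/- replicate 03 and 1 without wild-type replicate 02 or 03 or AcPb-/- replicate 04 or 05. After SD 2 were higher at an unadjusted p under 0.05. The part of these cell types in the genotype differences was not tested.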

How the data were processed

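Per the labels, RNA of the somatosensory cortex was made into stranded libraries and sequenced. The authors aligned paired-end reads to mm10 with HISAT2 2.2.1 and counted reads per gene (featureCounts in the submitters' processing notes, HTSeq in the paper; annotation and counted strand are not given in the sources used here). The deposited values are signal, read counts divided by a DESeq2 size factor per library and table. Whole reads were recovered for 100.0% of 293052 values (within 0.01). The deposited fold changes and p-values were not used.

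Log2(normalized count + 1) of every gene with any read was compared with limma 3.58.1 (R 4.3.3, variance trend, 4 residual degrees of freedom, Benjamini-Hochberg adjustment, threshold 0.05), as the tables hold normalized values. Libraries are labelled as separate samples, and p-values measure the spread between them. The interaction was fitted on 12 libraries (8 residual degrees of freedom). Alternatives were thresholds, filters, pseudocounts of 0.1 and 10, TMM, centring, all groups fitted together, each library left out, and edgeR 4.0.16 and DESeq2 1.42.0 on the recovered reads. A term for Xist, edgeR and DESeq2 with it, and Xist libraries alone were further fits, the latter 3 added after the data were seen. The fits were checked on simulated data. Genes named are Il1rap, those past the threshold, list members and genes named after their values were seen. The members and lists were chosen with earlier results of these data known. Positions are from GENCODE M21 (GRCm38, 23384 symbols matched, 95.8%), and 100-base stretches were compared between its transcripts. Tables and figures used Python 3.11.15, pandas 2.3.3 and matplotlib 3.10.9.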

Additional observations from a re-analysis of the deposited data

How the results depend on the processing

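The 4 calls in controls remained 4 with a minimum size of 0.5 on the log2 scale, a mean of at least 10, a pseudocount of 0.1, TMM factors or centring. They were 0 at an adjusted p under 0.01 and with a pseudocount of 10 (1730 and 1784 genes at an unadjusted p under 0.05), 15 without a variance trend (0 of the 4 among them), 8 in edgeR, 93 in DESeq2, 8 in the fit of 12 libraries (2 of the 4 among them) and 10 with a term for Xist. EdgeR and DESeq2 with that term gave 355 and 235, and the 4 Xist libraries alone gave 234. Leaving out each control library gave between 0 and 168. The cause was not tested. After SD, the 3 calls became 1 at an adjusted p under 0.01, 9 in edgeR, 97 in DESeq2, 5 in the fit of 12 libraries and 0 with a replicate block, and leaving out each library gave between 0 (without wild-type replicate 01) and 4. Calls in both sets (0) became 1 in edgeR and 24 in DESeq2, and between 0 and 3 when each control library was left out (3 without AcPb-/- control replicate 03). The interaction (0) became 1 in DESeq2, and between 0 and 9 when each library was left out (9 without AcPb-/- control replicate 03). No paired analysis was possible because, in controls, the groups share only replicate number 03, whose libraries deviated from their group means with r = -0.47. After SD the groups share numbers 02 and 04 (r = 0.21 and 0.22), whose meaning is not given in the sources used here, and the replicate block there gave the 0 above.

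Of 1040 log2 fold changes of 55 named genes under 19 alternatives, 856 kept their direction and side of the threshold, 148 passed it newly, 28 no longer passed it and 8 changed sign, all in genes near 0. In the Xist libraries Phgdh was 0.0362 and Ddit3 was -0.0177. With each control library left out, Phgdh ranged from -0.154 (without wild-type replicate 03) to 0.0843 (without wild-type replicate 01), Ddit3 from -0.0143 (without AcPb-/- replicate 03) to 0.0563 (without AcPb-/- replicate 04) and Il1r1 from -0.0445 (without AcPb-/- replicate 05) to 0.199 (without AcPb-/- replicate 03). Il1rapl1 ranged from -0.152 (without AcPb-/- replicate 04) to 0.0026 and Rbm3 from -0.196 (without wild-type replicate 01) to 0.0159, both highest without AcPb-/- replicate 03. With 3 libraries a group of 26504840 to 41615582 reads, genes with a handful of reads such as Tmem207, Gm20319 and Ostn rest on counts too low for a firm size.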

Other observations

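Some genes outside these groups also stood apart in controls and were named after their values were seen. Bok, a member of the Bcl-2 family of cell death regulators on chromosome 1, had 1067, 1224 and 1298 normalized counts in wild-type and 752, 683 and 820 in AcPb-/- controls (log2 fold change -0.67 ± 0.09, limma adjusted p = 0.0917). In SD mice it had 1262, 1118 and 1402 against 743, 1220 and 862, where AcPb-/- replicate 03 lay within the wild-type range (-0.45 ± 0.16). Snrpd1, a core protein of the spliceosome, had 888, 884 and 996 against 620, 675 and 579 in controls (-0.56 ± 0.08, limma adjusted p = 0.112) and -0.46 ± 0.08 after SD. DESeq2 called both genes in controls, and over the alternatives the adjusted p ranged from 2.65e-05 to 0.575 for Snrpd1 and from 1.49e-07 to 0.575 for Bok.

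Of the 2 cold-inducible RNA-binding genes, Cirbp had 1842, 1948 and 1707 normalized counts in wild-type and 2180, 2384 and 2360 in AcPb-/- controls (log2 fold change 0.33 ± 0.06, limma adjusted p = 0.254) and 0.07 ± 0.08 after SD. Rbm3 had 1625, 2111 and 2130 against 1648, 1946 and 1978. Of 15 glucocorticoid-responsive genes, 2 had an unadjusted p under 0.05, both lower (13.3%, against 4.26% of all genes). Of the 15, 13 had a negative log2 fold change (median -0.05). After SD 0 had an unadjusted p under 0.05 (median -0.08). Cdkn1a, a cell cycle inhibitor, had 746, 532 and 599 against 434, 471 and 438 (-0.47 ± 0.12). Mt2, a metal-binding protein gene, had 2002, 1513 and 1502 against 1117, 1396 and 1348 (-0.37 ± 0.12), and 22.4% of its stretches also occur in Gm45774. Fkbp5, induced strongly by glucocorticoids, had a log2 fold change of -0.03. None of these passed the adjusted threshold in limma, whereas DESeq2 called Cirbp higher in controls (adjusted p = 0.0143).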
